A study of Rattus norvegicus with 32 samples.

Results

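The genes described here encode calcineurin, its regulators and the NFAT transcription factors: Ppp3ca, Ppp3cb, Ppp3cc, Ppp3r1, Rcan1, Rcan2, Nfatc1, Nfatc3, Nfatc4 and Nfat5. They were taken by name, as the probes on the array whose gene name equals one of these 10 symbols. Of the 10 genes, 9 had a probe under that name, with 12 probes of the 30367 on the array, and Nfatc1 had none. The set of genes was chosen by pathway with earlier results of these arrays known, so the fold changes of the comparisons below count as values that chose it. They are therefore given as a description, and the counts of genes past a limit support nothing by themselves.

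The cells were C6, a glioma line of the rat that grows as a culture. Ang II (angiotensin II) is a peptide hormone that acts on the receptors AT1 and AT2, Losartan (Los) blocks AT1 and PD123319 blocks AT2. The 32 samples, with 1 single-dye expression array each, fell into 8 groups of 4 replicates: Control, Ang II at 100 nM, Losartan at 10 µM for 30 min and then Ang II (Ang II+Los), and PD123319 at 10 µM for 30 min and then Ang II (Ang II+PD123319), each at 3 h and at 6 h. No group received an antagonist without Ang II. The Ang II comparison (Ang II x Control) asked what the hormone changed. The Losartan comparison (Ang II+Los x Ang II) asked which transcripts differed when AT1 was blocked first, and the PD123319 comparison (Ang II+PD123319 x Ang II) did so for AT2. Whether the replicates came from separate cultures is not given in the sources used here, so the errors measure only the spread between these samples.

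Calcineurin is a phosphatase that is switched on by calcium and calmodulin. Its catalytic A subunit is encoded by Ppp3ca, Ppp3cb or Ppp3cc, and its calcium-binding B subunit by Ppp3r1. The active enzyme removes phosphate from NFAT proteins, which then enter the nucleus and often act there together with AP-1. Rcan1 and Rcan2 encode proteins that bind calcineurin and can inhibit it, and transcription of Rcan1 is itself known to respond to calcineurin and NFAT. Nfatc3 and Nfatc4 encode calcineurin-dependent factors, whereas Nfat5 encodes the factor of osmotic stress, which lacks the calcineurin-binding region of the others. In glial cells, the pathway is known for responses to calcium signals and to inflammation. Activity of calcineurin is regulated at the protein level and was not measured by these arrays, which report transcript abundance only.

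Each array value rests on the probe that hybridized. The probes of the catalytic subunit gene Ppp3ca and the B subunit gene Ppp3r1 are shown for their log2 fold changes at 3 h. These were the largest of the set at that time in the Losartan and PD123319 comparisons, in this order. The Rcan1 probe is shown because it is the dim one of the pair for this gene. All are 60 bases long and 45.0% G and C, and are given 5′ to 3′ in the sense of the transcript.
Ppp3ca: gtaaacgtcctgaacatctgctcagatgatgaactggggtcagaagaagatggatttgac
Ppp3r1: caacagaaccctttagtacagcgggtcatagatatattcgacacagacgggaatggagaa
Rcan1, dim probe: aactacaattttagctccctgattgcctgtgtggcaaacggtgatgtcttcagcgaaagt
On rn4, the build named in the file headers, these probes lie at chr2:234375355-234375414 on the plus strand, chr14:98093248-98093307 on the plus strand and chr11:32408711-32408770 on the minus strand. The bright probe of Rcan1 lies downstream on the same strand, at chr11:32386621-32386680. The file headers list the bright probe for 2 Ensembl transcripts and the dim probe for 1 of them.

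The stretch of 250 bases before the start of Rcan1 is also shown, since Rcan1 is the member whose transcription is known to follow NFAT. The capitals mark every match to the NFAT core GGAAA and to the AP-1 motif TGACTCA, on either strand (TTTCC and TGAGTCA on the other strand).
Rcan1, before the start: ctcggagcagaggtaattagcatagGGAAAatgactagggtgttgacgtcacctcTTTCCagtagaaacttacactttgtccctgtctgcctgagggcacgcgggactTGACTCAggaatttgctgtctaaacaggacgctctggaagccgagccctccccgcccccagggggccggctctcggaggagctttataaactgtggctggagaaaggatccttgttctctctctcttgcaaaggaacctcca
This window is chr11:45118237-45118486 on the minus strand of GRCr8 (RefSeq), a later build than that of the probes. It holds 2 NFAT cores, which begin 225 and 195 bases before the start, and 1 AP-1 motif, which begins 142 bases before it. Of 33469 rat windows of the same length, 56.9% held an NFAT core, 4.05% an AP-1 motif and 2.27% both. Promoters were found for 5 of the 10 genes. In the same window, Ppp3cb and Ppp3r1 held 1 NFAT core each, Ppp3ca and Rcan2 held 0, and none of these 4 held the AP-1 motif. These letters are a description of the window and do not show binding.

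The groups were compared within slides, since every slide carried 1 array of each group of a time interval and the replicate number is that of the slide. On every slide Control took position 1, the hormone alone position 2, Losartan position 3 and PD123319 position 4, so that treatment and position cannot be told apart. At 3 h, the Ang II+Los array of replicate 2 stood apart. The SD of its differences from its slide mates over all genes was 0.85 on the log2 scale, against a median of 0.32 over the 16 arrays of 3 h. It also had the largest shift between downstream and upstream probes of the same transcript, taken relative to the mean of the slide. The median was 0.37 (log2) over 582 probe pairs, whereas the other 15 arrays lay between -0.18 and 0.056. The slide mean includes the array itself, which lowers the values of its slide mates. The next highest SDs were 0.62 for Control replicate 2, 0.56 for Ang II+Los replicate 1 and 0.52 for Ang II replicate 2. The value of each gene in the Losartan comparison at 3 h is given with and without the Ang II+Los arrays of replicates 1 and 2, a choice made after the values of Ppp3ca were seen. Their slide mates stayed in that fit, so its value draws partly on slides with no Losartan array and is not within-slide alone. At 6 h, the SD was highest on Control replicate 2 (0.41), Ang II+PD123319 replicate 4 (0.40), Control replicate 4 (0.38) and Control replicate 1 (0.37), against a median of 0.25. Of the glial markers, 6 of 7 were measured at both times, and Gfap was well above background on 0 of 16 arrays at 3 h and on 2 at 6 h. Of T cell markers, 0 of 4 passed the filter at either time, although Cd4 was well above background on 10 of 16 arrays at 6 h. Ptprc of leukocytes was never well above background. Of both the neuronal and the microglial markers, 3 of 5 were measured at 3 h and 4 of 5 at 6 h. Their part in the results was not tested. Agtr1a, Agtr1b and Agtr2, which encode the AT1 and AT2 receptors, were well above background on 0 of the 32 arrays. The arrays thus give no level for them, whereas the study followed both receptors by qPCR.

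A gene was tested when some group had a probe well above background on each of its 4 arrays, and 8 members passed at each time among 13627 genes at 3 h and 16444 at 6 h. Rcan2 was not well above background on any of the 32 arrays, so that it has no level here. The probes of Ppp3ca, Ppp3cb, Ppp3cc, Ppp3r1 and Nfatc4 and the bright probes of Rcan1, Nfatc3 and Nfat5 reached that mark on each of the 32 arrays, so that no member passed the filter through 1 group alone at 3 h. The dim probe of Rcan1 reached that mark on 2 of 16 arrays at 3 h and 5 of 16 at 6 h, and was not kept. At 3 h, its 2 arrays were 1 of Ang II+Los and 1 of Ang II+PD123319, and at 6 h its 5 arrays included all 4 groups. The second probes of Nfatc3 and Nfat5 were kept at 6 h only, that of Nfat5 through the Ang II group alone. Levels of different probes are not compared. The values are log2 signals normalized within a time interval, and the 2 time intervals were normalized separately.

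The catalytic subunit gene Ppp3ca had the largest log2 fold change of the 8 genes at 3 h, and it came from 2 slides. At 3 h, the normalized log2 signal of Ppp3ca in replicates 1 to 4 was 7.86, 8.15, 8.34 and 8.55 in Control and 7.83, 8.07, 8.47 and 8.91 in Ang II. In Ang II+Los it was 6.77, 6.17, 8.47 and 8.69, and in Ang II+PD123319 it was 7.86, 8.37, 8.33 and 8.70. The Ang II+Los arrays of replicates 1 and 2 were the lowest of the 16, and those of replicates 3 and 4 lay within the range of the other groups. The log2 fold change in the Losartan comparison was -0.80 ± 0.32 (SE, 4 pairs), with differences within slides of -1.06, -1.91, 0.0047 and -0.22. Without replicate 2, the log2 fold change was -0.44, and with only the 2 arrays Ang II+Los replicates 1 and 2 left out it was -0.0086. Within scan 1, which held replicates 1 and 2, it was -1.44, and within scan 2, with replicates 3 and 4, it was -0.12. The Ang II comparison gave 0.099 ± 0.32 and the PD123319 comparison gave -0.0062 ± 0.32 (SE).

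At 6 h, Ppp3ca was 7.98, 8.99, 8.67 and 8.78 in Control and 8.42, 8.98, 8.93 and 8.96 in Ang II. It was 8.59, 8.92, 8.88 and 8.83 in Ang II+Los and 8.37, 8.81, 8.79 and 8.86 in Ang II+PD123319. Replicate 1 was the lowest in every group, and the groups overlapped. The log2 fold change in the Ang II comparison was 0.22 ± 0.093 (SE), higher in 3 of 4 pairs, and those with the antagonists were -0.020 ± 0.093 for Los and -0.12 ± 0.093 for PD123319. The last was lower in 4 of 4 pairs, by 0.055 to 0.17 with an SD of 0.048 between the pair differences, where 11.4% of all genes were lower in 4 of 4 slides.

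**Figure D1:**
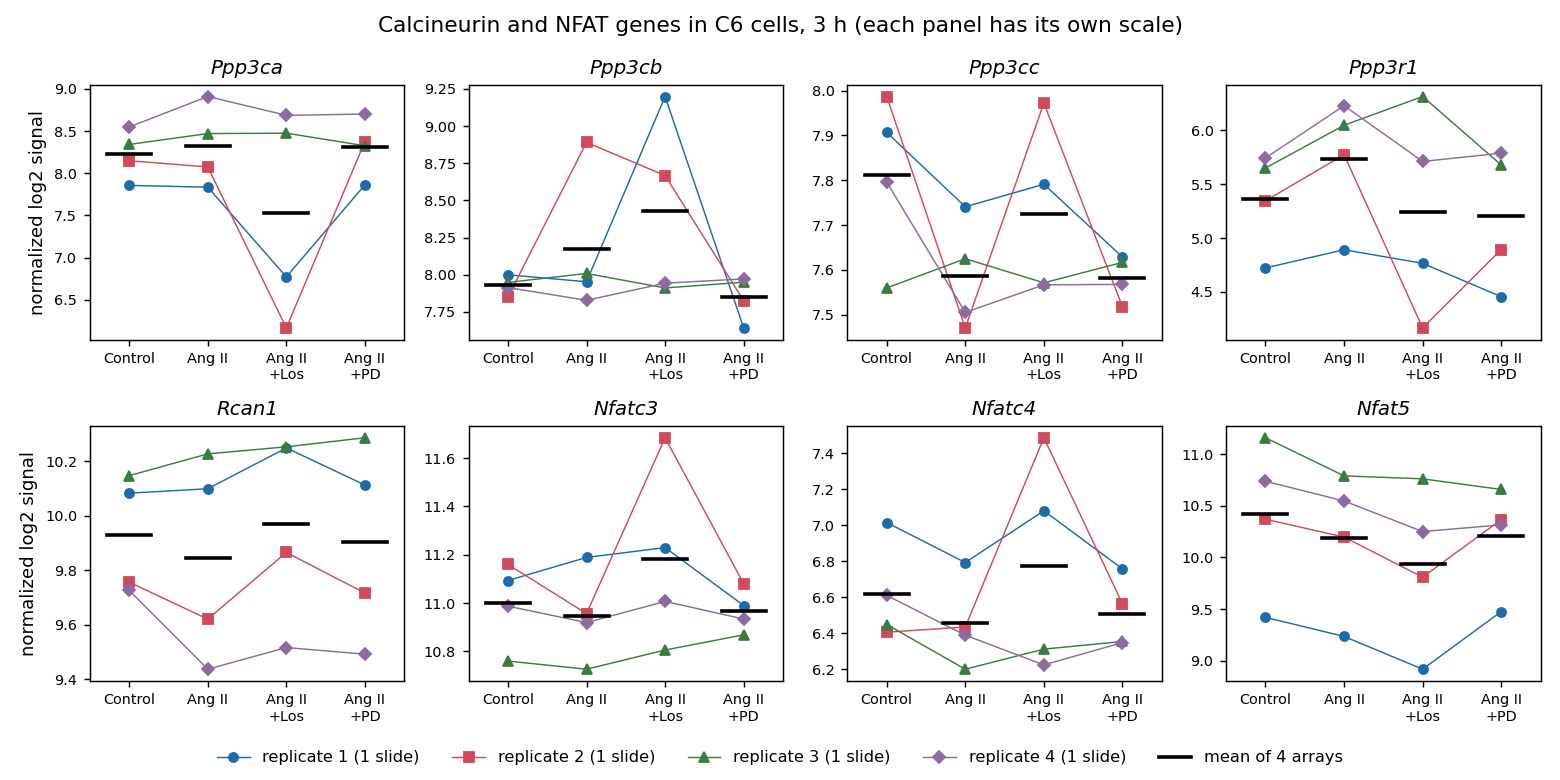
Normalized log2 signal (vertical axis, scale set for each gene) of the 8 measured calcineurin and NFAT genes in the 4 groups at 3 h. Points of 1 colour and marker are arrays of 1 slide, joined by lines, and the black bars are means of 4 arrays. The Ang II+Los arrays of replicates 1 and 2 lie far from their slide mates for Ppp3ca, and that of replicate 2 also for Ppp3r1, Nfatc3 and Nfatc4.

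Ppp3cb, which encodes the beta form of the catalytic subunit, varied little at 3 h apart from 3 arrays. It was 8.0, 7.85, 7.95 and 7.91 in Control and 7.95, 8.89, 8.01 and 7.83 in Ang II. It was 9.20, 8.67, 7.91 and 7.94 in Ang II+Los and 7.64, 7.83, 7.95 and 7.97 in Ang II+PD123319. The high arrays were replicate 2 of Ang II and replicates 1 and 2 of Ang II+Los, and the other 13 arrays lay between 7.64 and 8.01. The log2 fold changes were 0.24, 0.26 and -0.32 in the Ang II, Losartan and PD123319 comparisons, each ± 0.26 (SE). These values rested on single slides. Without replicate 2, the first was -0.020 and the third -0.076, and without replicate 1 the Losartan value was -0.070. With the Ang II+Los arrays of replicates 1 and 2 left out it was -0.20, while the differences within slides of replicates 3 and 4 were -0.097 and 0.11. At 6 h, its arrays ranged from 7.72 to 8.61, and the 3 log2 fold changes were 0.16, 0.015 and -0.0042, each ± 0.14 (SE).

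Ppp3cc, the gamma form of the catalytic subunit, was 7.91, 7.99, 7.56 and 7.80 in Control at 3 h and 7.74, 7.47, 7.62 and 7.50 in Ang II. It was 7.79, 7.97, 7.57 and 7.57 in Ang II+Los and 7.63, 7.52, 7.62 and 7.57 in Ang II+PD123319. Ang II arrays were lower than Control in 3 of 4 slides, and the groups overlapped through replicate 3. The log2 fold changes were -0.23, 0.14 and -0.0026 in the same order of comparisons, each ± 0.11 (SE). Without replicate 2, the first was -0.13 and the second 0.010, and without the Ang II+Los arrays of replicates 1 and 2 the second was 0.026. At 6 h, Ppp3cc was 8.0, 8.20, 8.60 and 8.10 in Control and 8.26, 8.14, 8.54 and 8.15 in Ang II. It was 8.29, 8.22, 8.65 and 8.18 in Ang II+Los and 8.22, 8.14, 8.62 and 8.09 in Ang II+PD123319, and replicate 3 was the highest in every group. The log2 fold changes at 6 h were 0.047, 0.061 and -0.0062, each ± 0.063 (SE), the smallest standard error among the 8 genes.

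The regulatory subunit gene Ppp3r1 was higher with Ang II than in Control, and lower with PD123319 than with Ang II alone, in 4 of 4 slides at 3 h. Both comparisons use the same Ang II arrays, so the opposite directions are not independent. Of all genes, 12% were higher in 4 of 4 slides in the first and 7.67% lower in 4 of 4 in the second. Its normalized log2 signal was 4.72, 5.35, 5.65 and 5.74 in Control and 4.89, 5.77, 6.05 and 6.23 in Ang II. In Ang II+Los it was 4.76, 4.16, 6.32 and 5.71, and in Ang II+PD123319 it was 4.45, 4.89, 5.68 and 5.79. Replicate 1 was the lowest array in 3 of the 4 groups, and the groups overlapped. The differences of Ang II from Control were 0.17, 0.43, 0.40 and 0.49, and the fitted log2 fold change was 0.37 ± 0.24 (SE). The differences of Ang II+PD123319 from Ang II were -0.44, -0.88, -0.37 and -0.44, and the fitted value was -0.53 ± 0.24 (SE). With Losartan the differences from Ang II were -0.13, -1.61, 0.27 and -0.52, and the fitted value was -0.50 ± 0.24 (SE). Without replicate 2, the value for Losartan was -0.14, and without the Ang II+Los arrays of replicates 1 and 2 it was -0.15.

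The value of Ppp3r1 for PD123319 was smaller, with a smaller error, under another background correction. With normexp, which adds an offset of 50 to each signal, the log2 fold change was -0.25 ± 0.090 (SE) in place of -0.53 ± 0.24. An offset draws the log2 fold change of a dim probe towards 0, so the 2 sizes are not on the same scale. Without normexp and with the Ang II+Los array of replicate 2 left out, the log2 fold change was -0.53 ± 0.14. Within scans 1 and 2 it was -0.70 and -0.39. At 6 h, Ppp3r1 was 5.28, 5.77, 5.85 and 6.15 in Control and 5.30, 5.65, 5.60 and 6.33 in Ang II. It was 5.45, 5.56, 5.36 and 6.11 in Ang II+Los and 5.35, 5.51, 5.56 and 6.02 in Ang II+PD123319. These arrays overlapped in all groups. The 3 log2 fold changes at 6 h were -0.044, -0.10 and -0.11, each ± 0.095 (SE), and the differences from Ang II under PD123319 were 0.045, -0.14, -0.040 and -0.31.

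**Figure D2:**
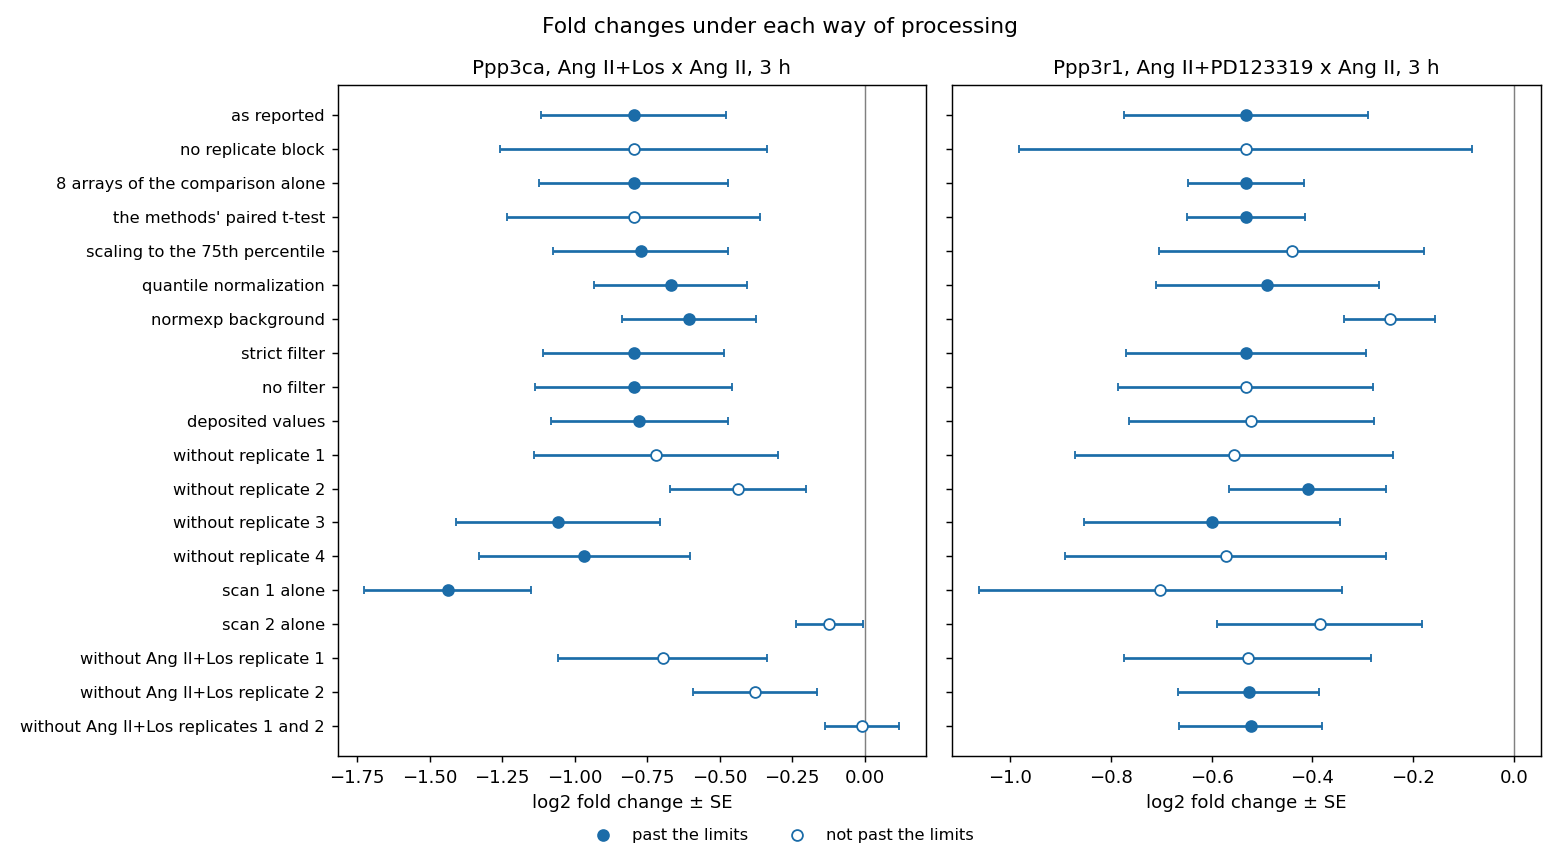
Log2 fold change ± SE (horizontal axis) of Ppp3ca in the Losartan comparison (left) and of Ppp3r1 in the PD123319 comparison (right) at 3 h, for the values as reported and for each other way of processing (vertical axis). Filled points are past the limits of an unadjusted p below 0.05 and a fold above 1.2 or below 0.8. All values lie below 0, those of Ppp3ca between -1.44 and -0.0086 and those of Ppp3r1 between -0.70 and -0.25.

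On its bright probe, which is listed for 2 transcripts, Rcan1 differed little between the groups. The dim probe, listed for 1 of the 2 transcripts of the bright probe, was not kept. That transcript therefore has no value of its own here, and its response was not measured. The bright probe alone is thus not read as a measure of NFAT activity. At 3 h, the bright probe gave 10.08, 9.76, 10.15 and 9.73 in Control and 10.10, 9.62, 10.23 and 9.44 in Ang II. It gave 10.25, 9.87, 10.25 and 9.52 in Ang II+Los and 10.11, 9.72, 10.29 and 9.49 in Ang II+PD123319. The 4 groups overlapped throughout, and the slides differed more than the treatments. The log2 fold changes were -0.082 in the Ang II comparison, 0.12 in the Losartan comparison and 0.056 in the PD123319 comparison, each ± 0.095 (SE). The differences under Losartan were above 0 in 4 of 4 slides, by 0.026 to 0.24, and those under PD123319 also, by 0.014 to 0.096, where 7.15% and 6.32% of all genes were higher in 4 of 4. Without the Ang II+Los arrays of replicates 1 and 2, the Losartan value was 0.041.

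At 6 h, Rcan1 was 10.34, 9.98, 9.73 and 10.04 in Control and 10.23, 9.89, 9.68 and 9.77 in Ang II. It was 10.13, 9.79, 9.68 and 9.66 in Ang II+Los and 10.21, 9.88, 9.79 and 9.65 in Ang II+PD123319. Ang II arrays were below Control in 4 of 4 slides, with differences of -0.11, -0.088, -0.055 and -0.27, and the log2 fold change was -0.13 ± 0.067 (SE). Of all genes at 6 h, 14% were lower in 4 of 4 slides in this comparison. Ang II+Los against Control gave -0.21 ± 0.067 and Ang II+PD123319 against Control gave -0.14 ± 0.067, both with the same Control arrays.

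The calcineurin-dependent factors Nfatc3 and Nfatc4 were highest at 3 h on the array that stood apart. The bright probe of Nfatc3 was 11.09, 11.16, 10.76 and 10.99 in Control and 11.19, 10.96, 10.73 and 10.92 in Ang II. It was 11.23, 11.68, 10.81 and 11.01 in Ang II+Los and 10.99, 11.08, 10.87 and 10.93 in Ang II+PD123319. Without the Ang II+Los array of replicate 2, the remaining 15 arrays lay between 10.73 and 11.23. The log2 fold change in the Losartan comparison was 0.23 ± 0.12 (SE), higher in 4 of 4 slides, with differences of 0.041, 0.73, 0.079 and 0.088, where 7.15% of all genes were higher in 4 of 4. Without replicate 2 it was 0.065, and without the Ang II+Los arrays of replicates 1 and 2 it was 0.062. The Ang II comparison gave -0.052 and the PD123319 comparison gave 0.020, each ± 0.12 (SE).

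Nfatc4 was 7.02, 6.40, 6.45 and 6.61 in Control at 3 h and 6.79, 6.43, 6.20 and 6.39 in Ang II. It was 7.08, 7.49, 6.31 and 6.22 in Ang II+Los and 6.76, 6.56, 6.35 and 6.35 in Ang II+PD123319. The Ang II+Los array of replicate 2 was again the highest, and replicate 1 was the highest of its group in the other 3 groups. The log2 fold changes were -0.17, 0.32 and 0.052 in the Ang II, Losartan and PD123319 comparisons, each ± 0.19 (SE). The Losartan value was 0.067 without replicate 2, and -0.060 without the Ang II+Los arrays of replicates 1 and 2. At 6 h, Nfatc4 was 7.06, 7.06, 7.51 and 7.07 in Ang II and 7.25, 7.43, 7.62 and 7.41 in Ang II+PD123319. The arrays with PD123319 were higher in 4 of 4 slides, by 0.20, 0.36, 0.11 and 0.34, and the log2 fold change was 0.25 ± 0.10 (SE), below the fold limit of 1.2. Of all genes, 10.5% were higher in 4 of 4 slides there. With scaling to the 75th percentile it was 0.27, which is past the limit. Control, at 7.48, 6.96, 7.67 and 7.09, overlapped with both, and Ang II+PD123319 x Control was 0.13 ± 0.10 (SE).

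At 6 h, Nfatc3 and Nfat5 were the mean of a bright and a dim probe, so their levels there are not on the scale of 3 h. The dim probe of Nfatc3 was well above background on 0 of 16 arrays at 3 h and 15 of 16 at 6 h, and that of Nfat5 on 1 and 13. The bright probe of Nfatc3 alone gave log2 fold changes of -0.0034, -0.039 and -0.016 at 6 h in the 3 comparisons, each ± 0.068 (SE), and the dim probe gave -0.10, -0.22 and 0.19, each ± 0.19. The bright probe of Nfat5 gave -0.092, -0.15 and 0.0044, each ± 0.11, and the dim probe 0.12, -0.39 and -0.11, each ± 0.21. As the mean of both probes, Nfatc3 gave -0.053, -0.13 and 0.087, each ± 0.11, and Nfat5 gave 0.012, -0.27 and -0.050, each ± 0.15 (SE). The arrays of all 4 groups overlapped for both genes. The largest single differences of the dim probes were those of replicate 3 under Losartan, at -1.0 for Nfatc3 and -1.34 for Nfat5.

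Nfat5, the osmotic-stress factor, was lower in Ang II than in Control in 4 of 4 slides at 3 h. Its bright probe was 9.42, 10.37, 11.16 and 10.74 in Control and 9.23, 10.20, 10.79 and 10.55 in Ang II. It was 8.92, 9.81, 10.76 and 10.25 in Ang II+Los and 9.48, 10.37, 10.66 and 10.32 in Ang II+PD123319. Replicate 1 was the lowest and replicate 3 the highest in every group, and all groups overlapped. The differences from Control under Ang II were -0.19, -0.17, -0.37 and -0.19, and the log2 fold change was -0.23 ± 0.12 (SE). Under Losartan the differences from Ang II were -0.32, -0.39, -0.029 and -0.30, and the log2 fold change was -0.26 ± 0.12 (SE), while PD123319 gave 0.012 ± 0.12. Without the Ang II+Los arrays of replicates 1 and 2, the Losartan value was -0.12. Of all genes at 3 h, 12.7% were lower in 4 of 4 slides in the Ang II comparison and 8.36% in the Losartan comparison.

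**Figure D3:**
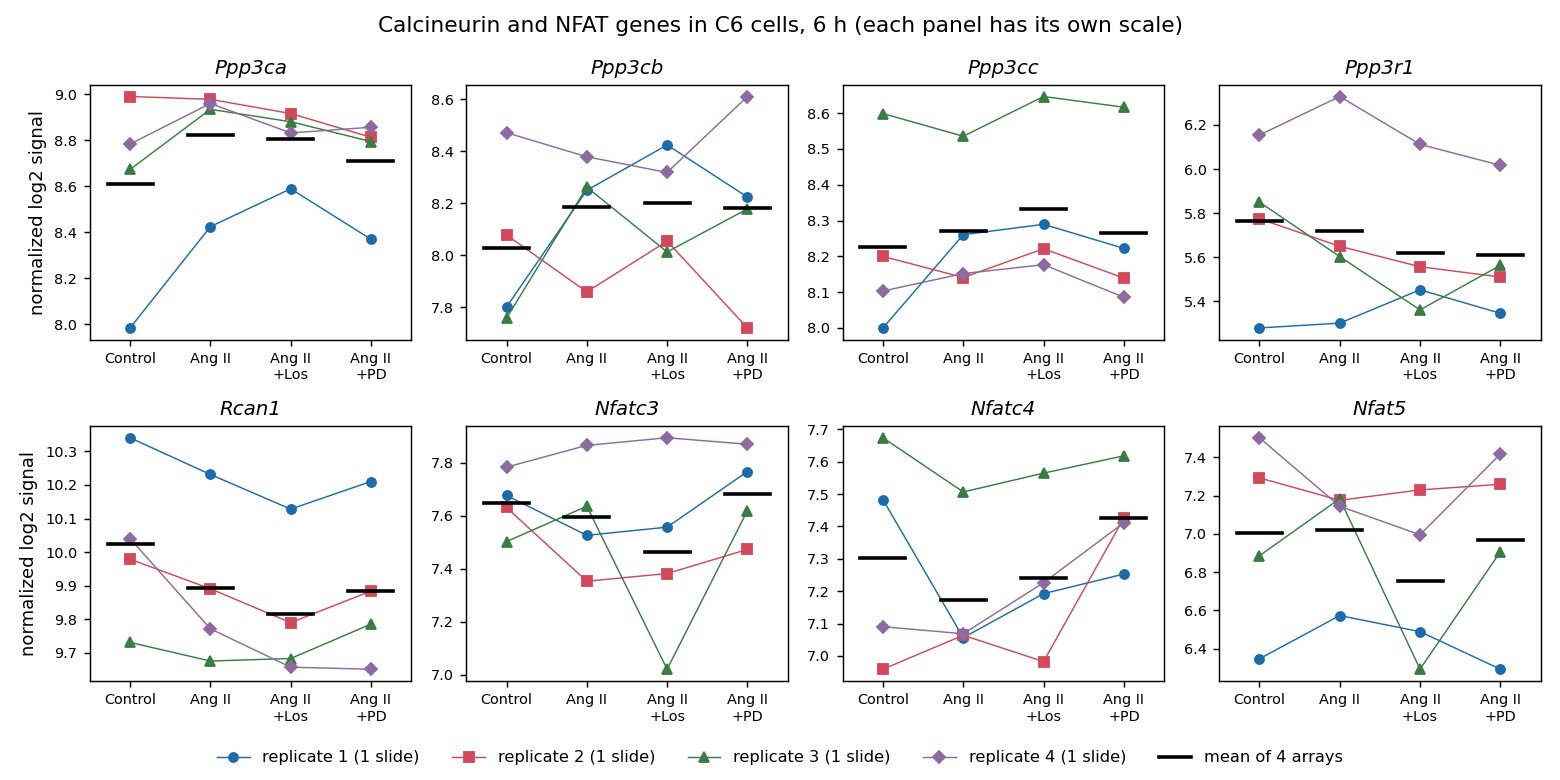
Normalized log2 signal (vertical axis, scale set for each gene) of the 8 genes in the 4 groups at 6 h, drawn as for 3 h. Nfatc3 and Nfat5 are means of a bright and a dim probe here. Lines of replicate 1 for Rcan1 and of replicate 3 for Ppp3cc lie highest in every group, while other lines cross. The treatment means of Ppp3cc span 0.11 on the log2 scale.

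Counted at an unadjusted p below 0.05 and a fold above 1.2 or below 0.8, 0 of the 8 genes were past the limits in the Ang II comparison at 3 h, where 11% of all genes were. In the Losartan comparison at 3 h it was 1 of 8 (Ppp3ca, lower), against 10.1% of all genes in either direction and 5.42% lower, and in the PD123319 comparison at 3 h 1 of 8 (Ppp3r1, lower), against 2.65% in either direction and 0.631% lower. At 6 h, 0 of 8 were past the limits in each of these comparisons, where 11.5%, 0.9% and 3.79% of all genes were. Since the genes were chosen with such values known, nothing is read from these counts. After Benjamini-Hochberg adjustment over all genes by limma, the lowest adjusted p among the 8 genes was 0.414, 0.426 and 1.00 at 3 h and 0.210, 1.00 and 0.737 at 6 h, in the same order. Over all genes, 0 had an adjusted p below 0.05 in these 6 comparisons, although 326 to 3533 had an unadjusted p below 0.05. The median log2 fold change of the 8 genes was -0.067, 0.13 and 0.0045 at 3 h, beside medians of 0.0022, 0.0032 and -0.018 over all genes. At 6 h it was -0.016, -0.049 and -0.0079, beside -0.0058, -0.00086 and -0.0038.

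**Figure D4:**
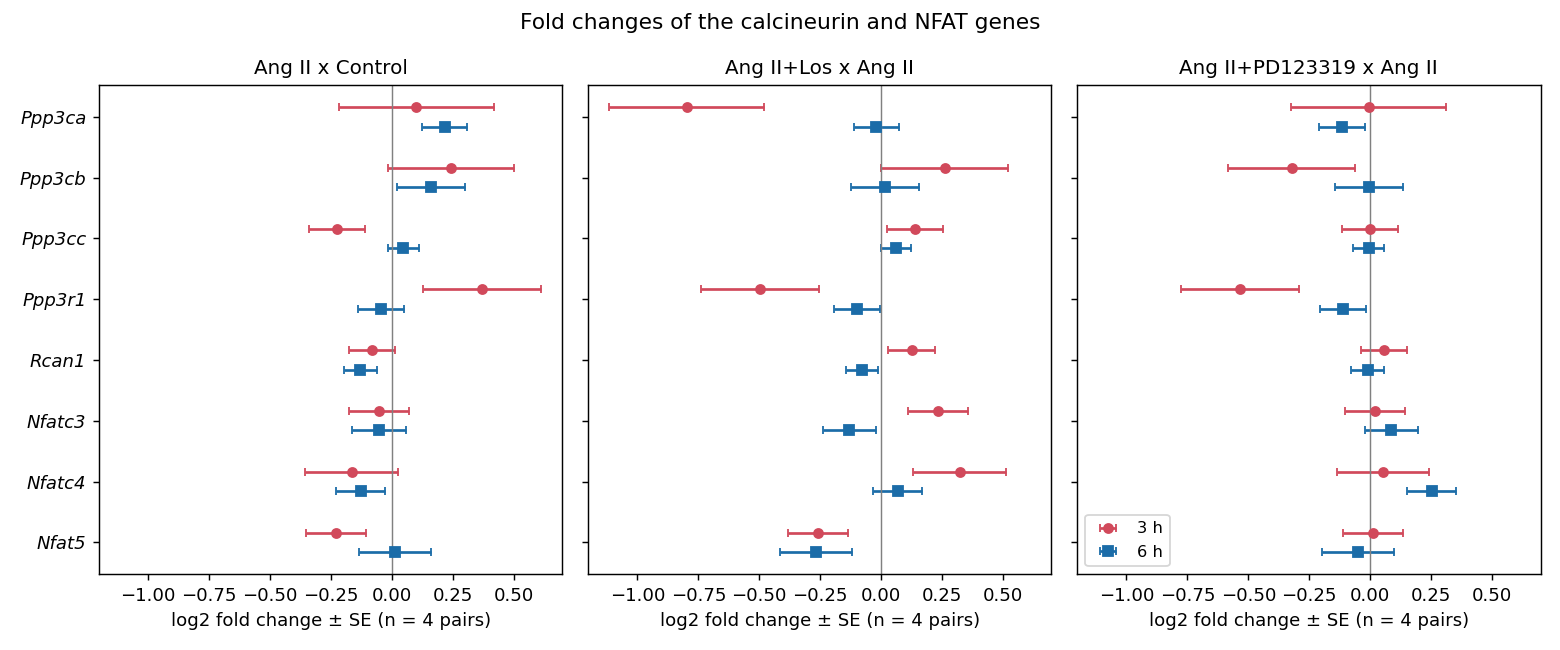
Log2 fold change ± SE (horizontal axis, 4 pairs of arrays each) of the 8 genes (vertical axis) in the 3 comparisons, at 3 h (circles) and 6 h (squares). Values at 3 h range from -0.80 to 0.37 and those at 6 h from -0.27 to 0.25.

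The groups with an antagonist were also set against Control and against each other. At 3 h, Ang II+Los x Control had 2 of 8 genes past the limits, both lower (Ppp3ca -0.70 ± 0.32 and Nfat5 -0.49 ± 0.12, SE), where 20% of all genes were in either direction and 10.1% were lower. Nfat5 was below Control in 4 of 4 slides, with -0.50, -0.56, -0.40 and -0.49, where 9.56% of all genes were lower in 4 of 4. With the Ang II+Los arrays of replicates 1 and 2 left out, 1 gene was past the limits, where 4.03% of all genes were. In Ang II+PD123319 x Control at 3 h, 0 of 8 genes were past the limits, where 6.1% of all genes were, and the log2 fold changes ran from -0.23 for Ppp3cc to 0.093 for Ppp3ca. The antagonists, both at 10 µM, differed at 3 h in 3 of 8 genes (Ang II+PD123319 x Ang II+Los), where 12.7% of all genes did: Ppp3ca 0.79 ± 0.32, Nfat5 0.27 ± 0.12 and Ppp3cb -0.58 ± 0.26 (SE). Without the Ang II+Los arrays of replicates 1 and 2, 0 of 8 genes were past the limits, where 1.83% of all genes were. For Ppp3r1 the difference between the antagonists was -0.035 ± 0.24 (SE).

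At 6 h, 0 of 8 genes were past the limits in these 3 comparisons, where 11.4%, 13.5% and 4.74% of all genes were. The log2 fold changes of the antagonists against each other ran from -0.096 for Ppp3ca to 0.22 for Nfatc3 at 6 h. In these comparisons, the lowest limma adjusted p among the 8 genes was 0.178 at 3 h, for Nfat5, and 0.109 at 6 h, for Rcan1. Over all genes, 224 (1.36%) and 226 (1.37%) had an adjusted p below 0.05 at 6 h in Ang II+Los x Control and Ang II+PD123319 x Control, and 0 in the other 4, where 1029 to 2960 had an unadjusted p below 0.05.

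The treatment differences within slides were also compared between the time intervals. Arrays of the 2 times lay on separate slides, were scanned apart and were normalized separately, so that time cannot be told apart from these. Past the limits were 1 of 8 genes for the Ang II comparison (Ppp3cc, 0.27 ± 0.12 SE, from -0.23 at 3 h to 0.047 at 6 h), where 6.5% of all genes were. For the Losartan comparison it was 2 of 8 (Ppp3ca, 0.78 ± 0.35, and Nfatc3, -0.37 ± 0.16), where 4.61% of all genes were. For the PD123319 comparison it was 0 of 8, where 1.63% of all genes were. Ppp3r1 differed between the times by -0.41 ± 0.27 for the Ang II comparison and 0.42 ± 0.27 for the PD123319 comparison (SE). After adjustment, 0 genes had an adjusted p below 0.05 in limma, and the lowest among the 8 was 0.674, 0.702 and 1.00. Without replicate 2, 0 of 8 were past the limits in the Losartan comparison, where 1.07% of all genes were. The Nfatc3 difference also compares 1 probe at 3 h with 2 at 6 h.

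For most of these genes, the slide means spanned a wider range than the treatment means. At 3 h, the slide means of Nfat5 spanned 1.58 on the log2 scale, against 0.49 for its treatment means, and those of Ppp3r1 spanned 1.22 against 0.53. Rcan1 spanned 0.69 between slides and 0.12 between treatments. The slide range was the larger in 6 of 8 genes at 3 h, all except Ppp3cb and Ppp3cc, where this held for 83.4% of all genes. At 6 h it was the larger in 8 of 8, where it held for 88.7%. The Ang II+Los array of replicate 2 held the highest or lowest of the 16 values at 3 h in 4 of 8 genes (Ppp3ca, Ppp3r1, Nfatc3 and Nfatc4), against 33.4% of all genes.

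Other genes of the pathway were taken by role in 6 lists, and 59 were tested at 3 h and 70 at 6 h. In the Ang II comparison at 3 h, 4 of the 59 were past the limits, or 6.78% beside 11% of all genes, and without replicate 2 it was 1, beside 5.49%. Calm2, which encodes calmodulin, was higher by 0.34 ± 0.12 (SE), in 4 of 4 slides. Hspa1b, a heat shock protein gene and NFAT5 target, was higher by 0.88 ± 0.37, though in 3 of 4 slides. Vegfa, the growth factor of blood vessels, was lower at -0.59 ± 0.25, with 0.030 in replicate 1 and -1.16 in replicate 2. Slc6a12, the betaine transporter and an NFAT5 target, was lower at -0.53 ± 0.15 in 4 of 4 slides. Of all genes, 12% were higher and 12.7% lower in 4 of 4 slides in this comparison.

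In the Losartan comparison at 3 h, 6 of 59 were past the limits, or 10.2% beside 10.1% of all genes. The number was 2 without the Ang II+Los array of replicate 2, beside 1.38%, and also 2 without replicate 2, beside 1.56%, or without replicate 4, beside 9.61%. Kpnb1, which carries proteins into the nucleus, was lower at -0.65 ± 0.29 (SE), the phospholipase gene Plcg1 at -0.59 ± 0.25 and the NFAT kinase gene Dyrk1a at -0.49 ± 0.21. In each of these 3, the difference of replicate 2 was the largest, at -1.94, -1.76 and -1.44, on the array that stood apart. Orai2, a calcium channel gene, was lower in 4 of 4 slides at -0.43 ± 0.16, where 8.36% of all genes were lower in 4 of 4. Ep300, a coactivator gene, was higher at 0.31 ± 0.12, and Slc6a12 at 0.36 ± 0.15, though with -0.20 in replicate 1. The Ang II arrays are those of the Ang II comparison, so the opposite directions of Slc6a12 are not independent. In the PD123319 comparison at 3 h, 2 of 59 were past the limits, or 3.39% beside 2.65% of all genes. The 2 were the AP-1 gene Fosl1 at -0.41 ± 0.13, lower in 4 of 4 slides, and Nppb, a natriuretic peptide gene, at -0.38 ± 0.15. Nppb had a difference of 0.040 in replicate 1. Of all genes, 7.67% were lower in 4 of 4 slides there. Without replicate 2, 3 or 4 the number was 1, beside 1.87%, 3.06% and 0.341% of all genes.

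In the Ang II comparison at 6 h, 10 of 70 genes were past the limits, or 14.3% beside 11.5% of all genes, and 9 of them were higher, where 6.79% of all genes were. Without replicate 2 the number was 4, beside 8.26% of all genes. The Control arrays of replicates 1, 2 and 4 held the highest or lowest of the 16 values of 6 h in 29%, 25.5% and 18.7% of all genes, and their part in these differences was not tested. Of calcineurin substrates other than NFAT, 3 of 8 were higher: Dnm1, the dynamin of endocytosis, at 0.74 ± 0.26 (SE), Bad, a gene of cell death, at 0.34 ± 0.090 and Crtc3, a CREB coactivator gene, at 0.27 ± 0.086. All 3 were higher in 4 of 4 slides. In this comparison, 12.2% of all genes were higher in 4 of 4. Xpo1, which exports NFAT from the nucleus, was higher at 0.30 ± 0.081 and Itpr2, an IP3 receptor gene of calcium release, at 0.32 ± 0.096, both in 4 of 4 slides. Plcg1 at 0.27 ± 0.086, Nppb at 0.27 ± 0.12, the chemokine gene Ccl2 at 0.47 ± 0.20 and Hspa1b at 0.67 ± 0.27 were higher with at least 1 slide against them. Atp2a2, the calcium pump of the endoplasmic reticulum, was lower at -0.46 ± 0.15, with differences of -0.038, -0.98, 0.011 and -0.82. In both comparisons with an antagonist at 6 h, 0 of 70 were past the limits, where 0.9% (Losartan) and 3.79% (PD123319) of all genes were. Of the 16 genes known as NFAT targets, 5 were measured at 3 h and 8 at 6 h, and Il4, Tnf, Csf2, Edn1, Myh7 and Ptgs2 were never well above background. In a culture measured as a whole, fewer cells with a transcript and less transcript per cell cannot be told apart.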

How the data were processed

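RNA of the 32 samples was hybridized with a single dye (Cy3) to Agilent rat arrays. Per the file headers, the authors' scanner software, Agilent Feature Extraction 9.5.3.1, subtracted the background and gave an intensity for each spot. The deposited log2 values are the log2 of that intensity without normalization between arrays, and 38.2% are blank. They were used as an alternative only. Here, outlier-flagged spots were dropped, dim spots of 3 h took the error of their signal, as the software had done at 6 h, and spots of a probe were averaged. A probe with over 2 gaps was dropped. Cyclic loess (3 iterations, span 0.7) was run over the 16 arrays of a time interval, and kept probes of a gene were averaged. Comparisons used limma 3.58.1 (R 4.3.3) on the 16 arrays with the slide as a block, and Benjamini-Hochberg adjustment over all genes. The limits were an unadjusted p below 0.05 and a fold above 1.2 or below 0.8. The number of arrays limits the precision: over all genes, the standard error of a log2 difference had a median of 0.16 (3 h) and 0.10 (6 h).

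The replicate number pairs the samples, as it is that of the slide. Deviations from the group means of same-numbered arrays correlated by 0.15 to 0.92 at 3 h and 0.55 to 0.83 at 6 h. Scan 1 held replicates 1 and 2 and scan 2 replicates 3 and 4 of 3 h. The members, the lists and the tests were chosen with earlier results of these data known. The genes named are the members, the genes of the lists past the limits and the angiotensin receptors. The fits were tested on simulated data. Figures were drawn with matplotlib 3.10.9 in Python 3.11.15. Sequences come from the scanner files and from RefSeq (GRCr8). The alternatives are no replicate block, other scalings, another background, other filters, single probes, fewer arrays, deposited values, a paired t-test per gene (the methods name t-tests for the arrays, which the series record calls paired) and each replicate left out.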

Additional observations from a re-analysis of the deposited data

Results flagged for a closer look

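Of 64 groups of 4 arrays examined for the 8 genes, 5 had an array whose gap to its nearest neighbour, divided by the range of the group, was above Dixon's critical value for 4 values. Chance gives this in about 1 of 20 groups. At 3 h it was Ppp3cb in Ang II, where replicate 2 was at 8.89 and the next array at 8.01 on the log2 scale (0.83). At 6 h it was Ppp3ca in Ang II, with replicate 1 at 8.42 and the next at 8.93 (0.922), and in Ang II+PD123319, with replicate 1 at 8.37 and the next at 8.79 (0.872). It was also Nfatc4 in Ang II, with replicate 3 at 7.51 and the next at 7.07 (0.973), and Nfat5 in Ang II, with replicate 1 at 6.57 and the next at 7.14 (0.935). At 6 h, replicate 1 was also the lowest array of Ppp3ca in the other groups, and replicate 3 the highest of Nfatc4, whereas for Nfat5 replicate 3 was the lowest in Ang II+Los. The Ang II+Los arrays of Ppp3ca at 3 h were not among these, since 2 of the 4 were low.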

How the results depend on the processing

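The number of the 8 genes past the limits is small, so that single genes move it, and the cause of a change was not tested unless the setting itself leaves out arrays. In order, the Ang II, Losartan and PD123319 comparisons at 3 h had 0, 1 and 1 genes past the limits. The share of all genes past the limits under the same setting is given in brackets. With no replicate block, the counts of the last 2 were 0 (2.5%) and 0 (0.455%), and the counts of Ang II+Los x Control and the antagonists' comparison (Ang II+PD123319 x Ang II+Los) fell from 2 and 3 to 0 (4.78%) and 0 (3.38%). With the 8 arrays of a comparison alone, the Ang II comparison had 1 (Ppp3r1, 11.8%), Ang II+Los x Control 1 (7.15%) and the antagonists' comparison 0 (4.81%). A paired t-test per gene gave 1 for the Ang II comparison (Ppp3r1, 4.89%) and 0 for the Losartan comparison (0.999%). In the PD123319 comparison, scaling to the 75th percentile, the normexp background, no filter and the deposited values each gave 0 (3.37%, 1.28%, 3.15% and 2.75%). No filter also gave 1 for Ang II+Los x Control (11.5%) and 1 for the antagonists' comparison (7.54%), and the deposited values gave 2 for the Losartan comparison (10.4%). Scaling to the 75th percentile gave 2 for the antagonists' comparison (14.6%). At 6 h, scaling to the 75th percentile gave 1 for the PD123319 comparison (Nfatc4, 5.56%) and 2 for the antagonists' comparison (6.15%). For the difference between the times, the normexp background gave 0 for the Ang II comparison (5.38%) and 1 for the Losartan comparison (3.84%), and no replicate block gave 0 (1.2%) and 0 (0.69%). In these 15 comparisons, the block changed no other count.

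With a replicate left out, or an Ang II+Los array of 3 h alone, the counts at 3 h ran from 0 to 1 in the Ang II comparison (5.49% to 14.3%), from 0 to 3 in the Losartan comparison (1.38% to 13.6%) and from 0 to 1 in the PD123319 comparison (0.341% to 5.33%). They ran from 1 to 2 in Ang II+Los x Control (6.29% to 24.5%), from 0 to 1 in Ang II+PD123319 x Control (4.38% to 8.27%) and from 0 to 3 in the antagonists' comparison (2.05% to 18.5%). At 6 h, they ran from 0 to 1 in the Ang II comparison (7.35% to 15%), the PD123319 comparison (2.17% to 6.39%), Ang II+Los x Control (6.85% to 16.5%) and Ang II+PD123319 x Control (8.1% to 19%). Between the times, they ran from 0 to 1 for the Ang II comparison (3.15% to 9.71%) and from 0 to 2 for the Losartan comparison (1.07% to 8.77%). The settings chosen after seeing the data gave these counts at 3 h. Scan 1 alone gave 0 for the PD123319 comparison (0.53%) and 3 for Ang II+Los x Control (24.7%). Scan 2 alone gave 0 for the Losartan comparison (4.21%), the PD123319 comparison (4.37%) and the antagonists' comparison (1.65%), and 1 for Ang II+Los x Control (5.79%) and Ang II+PD123319 x Control (7.36%). Without Ang II+Los replicates 1 and 2, the counts were 1 for the Ang II comparison (Ppp3r1, 17.3%), 0 for the Losartan comparison (3.76%), 1 for Ang II+Los x Control (4.03%) and 0 for the antagonists' comparison (1.83%).

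Over the 18 other settings at 3 h, Ppp3ca in the Losartan comparison lay below 0 in 18 and was past the limits in 10, and Ppp3r1 in the PD123319 comparison lay below 0 in 18 and was past the limits in 8. Ppp3r1 in the Ang II comparison lay above 0 in 18, between 0.21 and 0.43, and was past the limits in 4. The lowest adjusted p of these 3 over the settings was 0.129, 0.723 and 0.184 (limma). Of the other lists, 1 to 8, 1 to 10 and 0 to 3 genes were past the limits at 3 h over the same settings. The shares of all genes ran from 2.61% to 17.3%, from 0.999% to 16.6% and from 0.341% to 5.33%. Over 13 settings at 6 h, the lists had 4 to 14, 0 to 2 and 0 to 1. There the shares of all genes ran from 3.21% to 15%, from 0.109% to 2.64% and from 0.687% to 6.39%. At 6 h, replicates 1 to 3 were scanned together and replicate 4 separately, so that the first batch is the set without replicate 4 and the second holds too few arrays for a value.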
